A study of Mus musculus with 23 samples.

Results

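The 42 genes described here are the type I interferon response genes of an immune gene panel, taken by symbol from a fixed list, and all 42 were found among its 770 genes. They comprise 7 receptor and signalling genes, 7 nucleic acid sensors and adaptors, 7 interferon regulatory factors, 19 interferon-stimulated effectors and 2 guanylate-binding proteins. They were measured in 23 E0771 tumours, a C57BL/6 mammary carcinoma line, here carrying luciferase and GFP, that was grown in the mammary ducts of female C57BL/6J mice injected at 6 to 8 weeks of age. The mice received placebo (P, n = 6), the IL-1 receptor antagonist Anakinra daily (A, n = 5), weekly Doxorubicin followed by the bisphosphonate Zoledronic acid (DZ, n = 6), or all of these drugs (ADZ, n = 6). All groups share the same tumour line and host strain, and RNA came from whole primary tumours. A figure legend of the study gives 1 tumour per animal for the A and DZ groups. The comparisons ask whether blocking IL-1 signalling, chemotherapy with an anti-resorptive drug, or their combination changed interferon signalling in the tumour.

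Type I interferons bind a receptor made of IFNAR1 and IFNAR2, whose kinases JAK1 and TYK2 phosphorylate STAT proteins, STAT2 among them. With IRF9, STAT2 forms part of a complex that binds the interferon-stimulated response element (ISRE) and switches on a large group of antiviral genes, while interferon gamma acts mainly at a different element, the gamma-activated site (GAS). In tumours the same programme can be started by DNA in the cytosol through STING, and doxorubicin is known as one of the drugs that can start it.

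The promoters of these genes were searched for the element on which the response rests. Of the 42 genes, 36 had a RefSeq promoter window (build GRCm38.p6, from 250 bases before to 50 bases after the start of the gene), and 15 of the 36 (41.7%) held at least 1 ISRE core, searched for as 2 copies of GAAA with any 2 bases between them, on either strand and counting matches that overlapped each other. Of all 27025 genes with such a window, 3.99% held it. A stricter form, GAAAC, any base and GAAA, each match of which is also a match of the first, was found in 8 of the 36 genes (22.2%) and in 0.792% of all genes. The following stretches are shown 5′ to 3′ on the strand of the gene, with every ISRE match in capitals (printed as TTTC where GAAA lies on the other strand), for effector genes to which the results below return.
Isg15, chr4:156200860-156200911: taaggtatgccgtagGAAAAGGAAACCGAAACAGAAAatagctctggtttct
Ifit1, chr19:34640770-34640828: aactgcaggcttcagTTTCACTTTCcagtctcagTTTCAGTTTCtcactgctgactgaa
Ifit3, chr19:34583358-34583431: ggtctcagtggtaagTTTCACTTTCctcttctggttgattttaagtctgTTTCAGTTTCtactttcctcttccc
Rsad2, chr12:26456548-26456587: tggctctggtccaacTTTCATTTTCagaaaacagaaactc
Bst2, chr8:71537572-71537617: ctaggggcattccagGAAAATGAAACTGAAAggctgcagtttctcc
Oas3, chr5:120777710-120777749: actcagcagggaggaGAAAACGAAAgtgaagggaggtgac
The Isg15 stretch carries 3 overlapping matches that end 57 bases before the start of the gene, Bst2 carries 2 overlapping ones, and Ifit1 and Ifit3 carry 2 apart from each other. By role, the element was found in 7 of 15 effectors, 3 of 5 sensors and adaptors, 2 of 7 receptor and signalling genes, both guanylate-binding protein genes and 1 of 7 regulatory factors. A strict form of the GAS element, TTTC and GAAA with any 3 bases between them, was searched for after the expression values had been seen. It was found in 3 of the 36 genes, Irf1, Irf2 and Irf8, and in 0.903% of all genes. No looser form was searched for. The Irf1 stretch is shown with the match in capitals.
Irf1, chr11:53769908-53769948: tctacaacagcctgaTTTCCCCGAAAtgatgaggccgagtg
These matches are a description of the sequence, and binding was not measured.

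Levels are given as the deposited log2 normalised count of each gene, in which 1 unit is a 2-fold difference, and they are not compared between genes because probes differ in efficiency. The panel gave 882537 to 1677295 gene counts per tumour. Background, set for every tumour at 2 SD above the mean of the 8 negative control probes, lay between 4.06 and 5.37 log2 units. Of the 42 genes, 38 were above it in all 23 tumours. Ifi44l was at or below it in all 23, Mx1 in 21, Gbp2b in 14 and Irf4 in 9. Mx1, which encodes an antiviral dynamin-like GTPase and is disrupted in C57BL/6 mice, read 3.78 to 4.84. Markers of epithelial cells were above background (summed level 9.60 to 10.74 over 5 markers), and the leucocyte gene Ptprc (CD45) ranged from 9.13 to 11.47. Because whole tumours were measured, fewer cells of a type and less RNA per cell cannot be told apart. The median SD over the 23 tumours was 0.31 log2 units for the 42 genes and 0.48 for all 770. The panel also held 85 to 182 genes per tumour at or below background. The 2 SDs were not matched for level, so they do not show that interferon genes vary less than others of like signal.

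2 features of these data are described here because no label gives them. The first is a split into 2 sets of tumours that emerged from clustering the 20 reference genes after the data had been examined. Set 1 held 11 tumours (3 P, 2 A, 3 DZ and 3 ADZ) and set 2 held 12 (3 of each group), so that all groups were represented in both. The sets also differed in the spacing of the spiked-in positive controls, where the step between the last pair was 1.23 to 1.90 log2 units in set 1 and 0.63 to 1.30 in set 2, and in the number of gene counts (median 1036610 and 1511140). What separates the sets is not stated in the labels and was not tested. The second is the placebo tumour P 4, in which the summed level of 7 B cell markers was 11.97, against 7.73 in the next highest tumour, and all 7 markers were at their highest. T cell markers were also highest in P 4 (7 of 7, summed level 11.23 against 10.12 in the next).

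**Figure D1:**
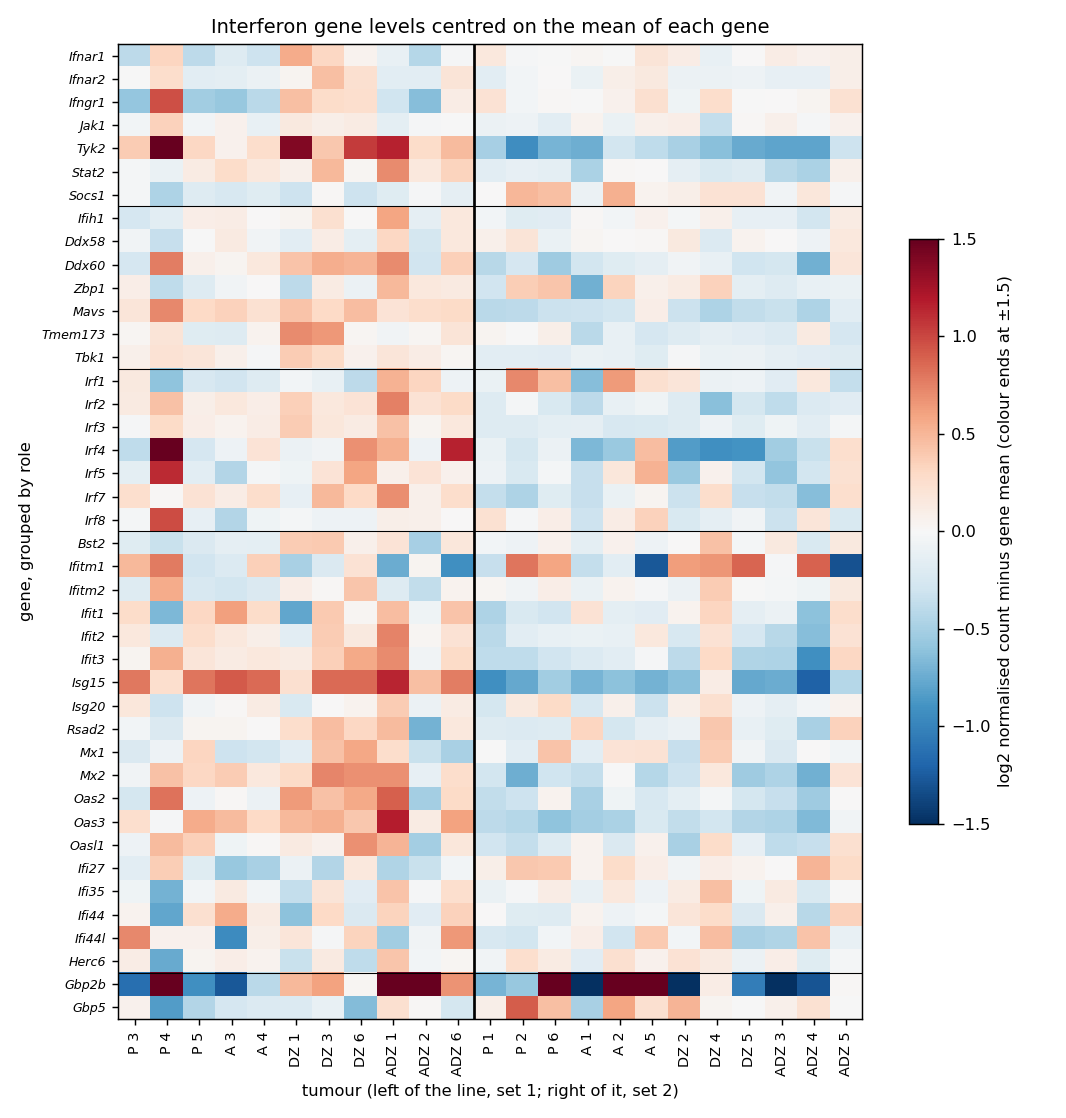
Log2 normalised count of each of the 42 genes minus the mean of that gene over the 23 tumours, with 1 row per gene, grouped by role, and 1 column per tumour, ordered by set and then by treatment group. Tyk2 changed colour at the line between the sets, and Isg15 did so apart from DZ 4 of set 2. After removal of group means, set 1 was higher by 1.25 log2 units for Tyk2 and 1.38 for Isg15.

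No member passed the test in any of the comparisons between treatments. With limma on the log2 values and Benjamini-Hochberg adjustment over the 770 genes, 0 of 42 members (and 0% of the panel) had an adjusted p under 0.05 for A, DZ or ADZ against P, for ADZ against DZ or A, for A against DZ, or for the interaction, which asks whether Anakinra acted differently with and without DZ. The smallest adjusted p of a member was 0.999 for A against P, 0.9997 for DZ against P, 0.99999 for ADZ against P, 0.9999 for ADZ against DZ, 0.9998 for ADZ against A, 0.995 for A against DZ and 0.996 for the interaction. At an unadjusted p under 0.05, 1 of 42 members, Bst2, was found between DZ and P (1.56% of all genes). In the other comparisons this count was 0 of 42, beside a share of all genes of 1.17% for A and 1.43% for ADZ relative to placebo, 1.04% and 0.13% for ADZ relative to DZ and to A, 4.29% for A relative to DZ and 0.26% for the interaction. Recovered counts analysed with voom, and limma with an intensity trend, also called 0 members. The 95% interval of the difference lay within a 2-fold change either way for 38 of 42 genes in A relative to placebo (68.1% of the panel), for 38 in DZ (74.3%) and for 39 in ADZ (73.6%). The panel shares include genes at background and were not matched for level. The genes with wider intervals in at least 1 of these 3 comparisons were Tyk2, Irf4, Ifitm1, Isg15 and Gbp2b. The 3 comparisons share the placebo tumours.

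**Figure D2:**
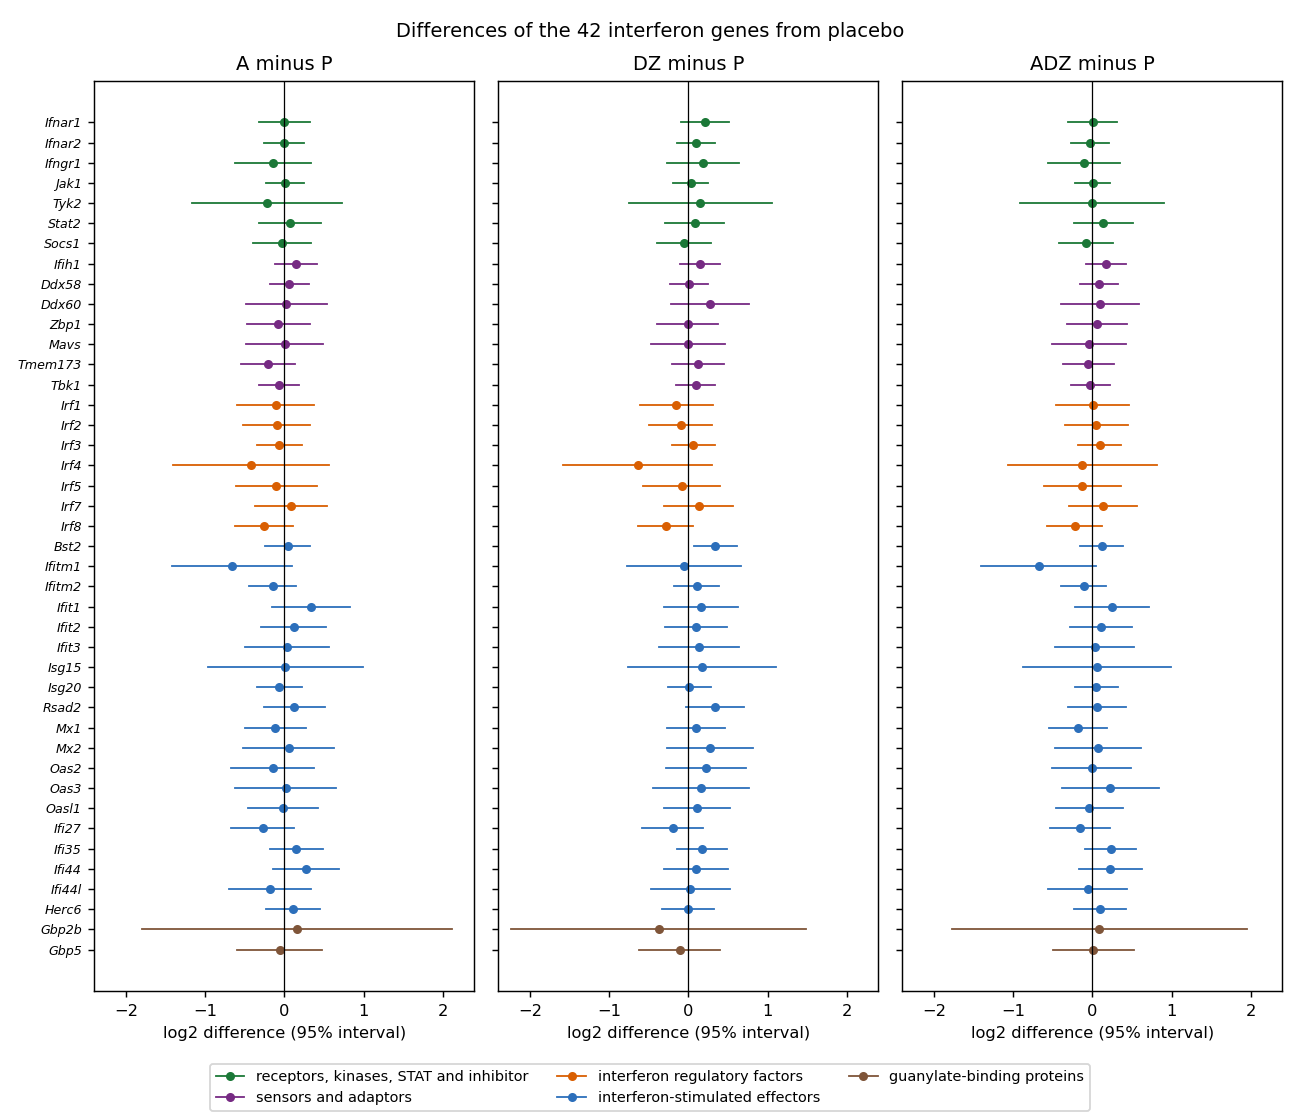
Log2 difference of each of the 42 genes from placebo in the A, DZ and ADZ groups, with points for the estimate and lines for the 95% interval, coloured by role. Apart from Bst2 between DZ and P, every interval included 0.

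None of the 7 receptor and signalling genes passed the test against placebo. Ifnar1, a subunit of the interferon receptor, ranged in P from 10.02 to 10.74 (median 10.41), in DZ from 10.30 to 10.98 (median 10.50) and in ADZ from 9.99 to 10.52 (median 10.44), and the A tumours read 10.45, 10.42, 10.22, 10.10 and 10.61. Its largest difference from P, in DZ, was 0.21 (95% interval -0.10 to 0.52), and all groups overlapped. Ifnar2, the partner subunit, spanned only 9.62 to 10.23 over all tumours, with group means of 9.76 ± 0.16 (P), 9.76 ± 0.13 (A), 9.86 ± 0.22 (DZ) and 9.74 ± 0.15 (ADZ, all SD). Stat2, which joins IRF9 in the ISRE-binding complex, was lowest in A 1 and ADZ 4 (both 10.44) and highest in ADZ 1 (11.63), and its group means of 10.85, 10.91, 10.92 and 10.98 (P, A, DZ, ADZ) differed by less than the SD within the A, DZ and ADZ groups. Socs1, the feedback inhibitor of JAK kinases, differed from P by -0.03, -0.06 and -0.08 in A, DZ and ADZ. Tyk2, the receptor-bound kinase, was the least precisely measured of them, with group means of 7.39 ± 0.90 (P), 7.17 ± 0.39 (A), 7.54 ± 0.92 (DZ) and 7.39 ± 0.77 (ADZ, all SD). Its difference from P was -0.22 in A (95% interval -1.17 to 0.72) and 0.15 in DZ (95% interval -0.75 to 1.06), intervals that reach past a 2-fold change. The median difference of the 7 genes was 0.10 between DZ and P, where the median of the panel was 0.04, and -0.0029 between A and P, where that of the panel was -0.085.

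Among sensors and adaptors, Ddx58 (RIG-I, a cytosolic RNA sensor) spanned 11.44 to 12.10 over all tumours, with group means of 11.75 ± 0.18 (P), 11.82 ± 0.07 (A), 11.76 ± 0.15 (DZ) and 11.84 ± 0.20 (ADZ, all SD). Ifih1 (MDA5), which senses long viral RNA, read 10.56 to 10.91 in P (median 10.64) and 10.53 to 11.40 in ADZ (median 10.80), a difference of 0.17 (95% interval -0.09 to 0.43). Without ADZ 1, the highest tumour, this difference was 0.064. Tmem173 encodes STING, the adaptor that relays the detection of cytosolic DNA. It was 8.88 to 9.25 in P (median 9.09), 8.86 to 9.76 in DZ (median 9.01) and 8.80 to 9.25 in ADZ (median 9.04), with 8.65, 8.95, 8.87, 9.10 and 8.80 in the A tumours. The high end of DZ came from 2 tumours, DZ 1 (9.76) and DZ 3 (9.70), both of set 1, and the groups overlapped. Its difference between ADZ and A was 0.15 (95% interval -0.18 to 0.49). Zbp1, a sensor of Z-form nucleic acid, had group means of 12.07, 11.99, 12.06 and 12.12 (P, A, DZ, ADZ). Those of Mavs, the mitochondrial adaptor of RIG-I and MDA5, were 8.83, 8.83, 8.82 and 8.78 in the same order.

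The interferon regulatory factors are the transcription factors that start and sustain the response. Irf7, the factor that amplifies interferon alpha production, ranged from 10.81 to 11.52 in P (median 11.19), from 10.93 to 11.75 in DZ (median 11.34) and from 10.63 to 11.96 in ADZ (median 11.43), and was 10.92, 11.17, 11.38, 11.53 and 11.31 in the A tumours. Both the lowest (ADZ 4) and the highest value (ADZ 1) were in the ADZ group, and the differences from P were 0.08 (A), 0.13 (DZ) and 0.13 (ADZ) with intervals that included 0. Irf1, which is induced mainly by interferon gamma, spanned 11.62 to 12.98 with group means of 12.32 ± 0.48 (P), 12.21 ± 0.50 (A), 12.16 ± 0.18 (DZ) and 12.32 ± 0.33 (ADZ). Irf8, a factor of dendritic cells, macrophages and B cells, was 9.37 to 10.47 in P (median 9.54), 9.05 to 9.84 in A and 9.26 to 9.46 in DZ (median 9.42). Its difference from P was -0.29 in DZ (95% interval -0.63 to 0.06) and -0.26 in A (95% interval -0.62 to 0.10), and the highest placebo value was that of P 4. Without P 4 these differences were -0.13 and -0.10. Irf4, which B cells and plasma cells express, was 7.74 in P 4 and 4.52 to 4.82 in the other 5 placebo tumours. Its interaction estimate of 0.93 (SE 0.66) became 0.43 without that tumour. The part of the B cell markers in these values was not tested, nor was that of the high level of P 4 over the whole panel.

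The effectors, 19 of the 42 genes, included Bst2, the member found between DZ and P before adjustment. Bst2 encodes tetherin, which holds budding virus at the cell surface. It ranged from 13.63 to 14.03 in P (median 13.83), from 13.94 to 14.40 in DZ (median 14.19) and from 13.46 to 14.17 in ADZ (median 14.11), and read 13.82, 14.03, 13.83, 13.82 and 13.88 in the A tumours. The DZ range overlapped that of P only between 13.94 and 14.03. Its difference between DZ and P was 0.34 (1.27-fold, SE 0.13, 95% interval 0.068 to 0.61), which did not pass after adjustment (limma, adjusted p = 0.9997). Within the sets the difference was 0.53 in set 1 (limma, adjusted p = 0.55) and 0.15 in set 2 (limma, adjusted p = 0.99). A was lower than DZ by 0.30 (95% interval of A minus DZ -0.60 to 0.0027), and ADZ was lower than DZ by 0.22 (95% interval of ADZ minus DZ -0.50 to 0.05), and neither passed.

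Rsad2, which encodes the antiviral enzyme viperin, was 10.56 to 10.82 in P (median 10.59) and 10.66 to 11.24 in DZ (median 11.06), with 11.10, 10.51, 10.82, 10.78 and 10.64 in A and 10.07 to 11.25 in ADZ (median 10.76). The ADZ tumours spanned the whole range seen in any group. The difference between DZ and P was 0.34 (95% interval -0.03 to 0.71) and the interaction was -0.40 (95% interval -0.93 to 0.13). Ifitm1, a membrane protein that blocks viral entry, showed the largest differences by size among the members in A and ADZ. The P tumours ranged from 8.38 to 9.53 (median 9.26), the DZ tumours from 8.24 to 9.60 (median 9.15) and the ADZ tumours from 7.41 to 9.62 (median 8.35), while the A tumours read 8.37, 8.56, 8.52, 9.09 and 7.46. ADZ held both the lowest and the highest value of all tumours, and A and P overlapped. The difference was -0.66 between A and P (95% interval -1.42 to 0.10) and -0.68 between ADZ and P (95% interval -1.40 to 0.04), and -0.06 between DZ and P. Without A 5 the former was -0.43, and without ADZ 5 the latter was -0.49.

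Isg15, a ubiquitin-like protein conjugated to other proteins, and the Ifit genes, whose products bind foreign RNA, are classical readouts of type I interferon. Isg15 ranged from 10.39 to 12.10 in P (median 11.17), from 10.54 to 12.16 in DZ (median 11.48) and from 10.09 to 12.45 in ADZ (median 11.31), and was 10.61, 10.69, 12.23, 12.15 and 10.59 in the A tumours. The ranges of all groups overlapped, and that of ADZ was the widest. Its group means of 11.24, 11.25, 11.41 and 11.30 lay within 0.17 of each other against SDs of 0.70 to 0.93. With the set as a block its difference from P was 0.15 in A (95% interval -0.25 to 0.55), 0.17 in DZ (-0.21 to 0.55) and 0.06 in ADZ (-0.32 to 0.43). Ifit1 averaged 10.48 ± 0.40 (P), 10.82 ± 0.32 (A), 10.64 ± 0.42 (DZ) and 10.72 ± 0.41 (ADZ), and Ifit3 was 11.51 ± 0.37, 11.54 ± 0.16, 11.64 ± 0.42 and 11.53 ± 0.59 in the same order. Oas2, a synthetase that activates RNase L, was 9.32 to 10.50 in P (median 9.52) and 9.42 to 10.32 in DZ (median 9.89), with 9.20, 9.62, 9.70, 9.60 and 9.45 in A. It was lower in A than in DZ by 0.37 (SE 0.20), and by 0.32 with the set as a block (SE 0.13, limma, adjusted p = 0.72). Ifi27, a mitochondrial and nuclear envelope protein, was lower in A than in P by 0.28 (SE 0.19), and by 0.32 with the set as a block (SE 0.14, limma, adjusted p = 0.996). With that block, 1 of 42 members had an unadjusted p under 0.05 between A and P (1.82% of all genes), 1 between DZ and P (Bst2, 4.42%) and 2 between A and DZ (Oas2 and Bst2, 5.97%), while 0 did for ADZ against P (2.21%), DZ (3.25%) or A (0.26%) and for the interaction (1.3%), and 0 passed the adjusted threshold. The guanylate-binding protein gene Gbp5, which supports inflammasome assembly, had group means of 11.20 ± 0.62, 11.14 ± 0.43, 11.10 ± 0.38 and 11.21 ± 0.19.

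**Figure D3:**
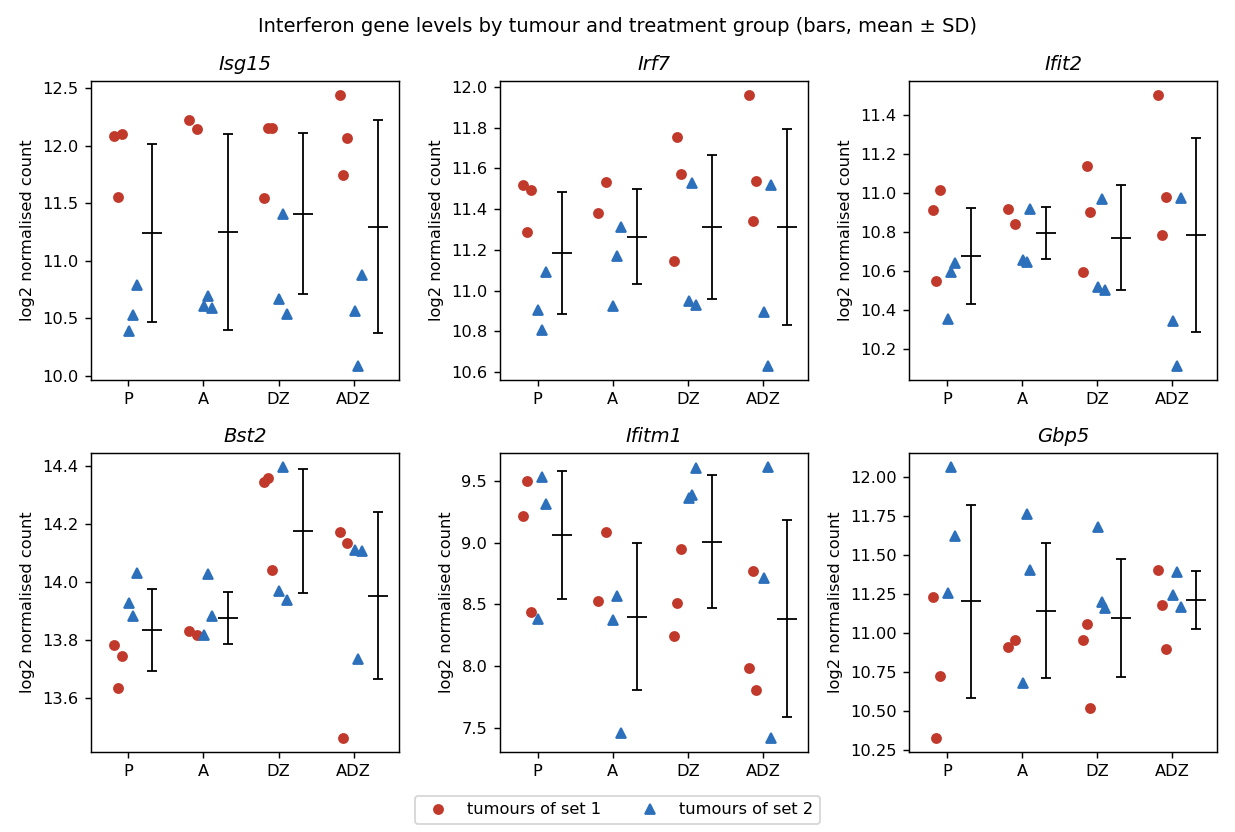
Log2 normalised count of 6 of the genes in every tumour, by treatment group, with circles for set 1, triangles for set 2 and bars for the mean ± SD of the group. Isg15 separated by set in every group, whereas the DZ tumours of Bst2 were shifted in level by 0.34 from P with overlapping ranges.

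Counted by sign alone, 19 of 42 members were higher in A than in P (33.4% of all genes), 29 in DZ than in P (57.5%), 25 in ADZ than in P (39.4%), 20 in ADZ than in DZ (28.2%), 27 in ADZ than in A (59.2%) and 13 in A than in DZ (25.3%). These splits moved with the scaling. With every tumour recentred on its panel median they became 37 (70.4% of all genes), 26 (52.2%), 39 (72.3%), 34 (67.5%), 22 (49.6%) and 34 (67.7%) of 42 in the same order. With quantile normalisation they were 26 (55.7%), 24 (49.5%), 31 (55.3%), 27 (56%), 23 (52.2%) and 24 (55.8%). Recentring also moved the median of all genes, from -0.085 to 0.13 between A and P and from -0.13 to 0.11 between A and DZ. The mean of the 42 centred values, used as a score, was -0.0061 ± 0.14 (P), -0.046 ± 0.13 (A), 0.041 ± 0.18 (DZ) and 0.0032 ± 0.25 (ADZ, all SD), with differences from P of -0.040, 0.047 and 0.0093 that were smaller than the pooled SD of 0.18 within groups. Within set 1 and set 2 these differences were -0.088 and 0.020 for A, 0.11 and -0.011 for DZ, and 0.10 and -0.081 for ADZ. The score gives equal weight to Ifi44l, Mx1, Gbp2b and Irf4, which were at or below background in some or all tumours. Gbp2b had an SD of 1.54 over the 23 tumours, against a median of 0.31 for the members. The score was not computed without these genes, so the opposite signs in the sets cannot be told apart from their noise. Of 23 further interferon genes on the panel, among them the interferons, Usp18 and Cxcl10, 0 passed the adjusted threshold in any comparison. At an unadjusted p under 0.05 only Ifnb1, the interferon beta gene, was found, between DZ and P (1.56% of all genes). Ifnb1 was 4.01 to 5.48 in P (median 4.77) and 4.85 to 5.74 in DZ (median 5.33), with 5.32, 4.80, 5.73, 5.05 and 4.87 in A and 4.06 to 5.78 in ADZ (median 5.06), and was at or below background in 4 of 6 P, 0 of 5 A, 1 of 6 DZ and 2 of 6 ADZ tumours. Its difference between DZ and P was 0.59 (SE 0.27, limma, adjusted p = 0.9997), and 0.59 with the set as a block (SE 0.24, limma, adjusted p = 0.97), and since most placebo values were at background this is not a measured fold. With the block, Ifna1 and Ifnl2, genes of interferon alpha and lambda, also had an unadjusted p under 0.05 between DZ and P. Ifna1 was higher in DZ by 0.74 (SE 0.23, limma, adjusted p = 0.97), against an SE of 0.37 without the block, and was at or below background in 3 of 6 P and 0 of 6 DZ tumours. It was also lower in ADZ than in DZ by 0.52 (SE 0.23, limma, adjusted p = 0.99) and in A than in DZ by 0.73 (SE 0.27, limma, adjusted p = 0.64), and 3 of 5 A tumours were at or below background. Ifnl2 was higher in DZ by 0.67 (SE 0.30, limma, adjusted p = 0.999), with all P and DZ tumours at or below background. The interaction for Ifnb1 with the block was -0.76 (SE 0.35, limma, adjusted p = 0.999). These were the 6 instances among the 23 genes over the 7 comparisons with the block, and none passed after adjustment. The share of all genes found in the same way was 4.42% for DZ against P and 3.25% for ADZ against DZ. It was 5.97% for A against DZ and 1.3% for the interaction. Ptprc did not pass between any pair of groups (exact two-sided permutation tests, p = 0.41 to 0.83 over 6 pairs, adjusted p = 0.83 for each).

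The 2 sets differed in level for some of these genes, which is given as a description with no test, since the sets were found in the data. In 7 of the 42 genes the ranges of set 1 and set 2 did not overlap (16.7%, against 5.71% of all genes), and in all 7 the level was higher in set 1. After removal of group means, Isg15 was higher in set 1 by 1.38 log2 units (2.61-fold), with 11.55 to 12.45 in the 11 tumours of set 1 and 10.09 to 11.41 in the 12 of set 2. Tyk2 was higher by 1.25, with 7.45 to 8.87 in set 1 and 6.45 to 7.11 in set 2. Oas3 (0.85), Mavs (0.66), Irf2 (0.50), Irf3 (0.32) and the kinase gene Tbk1 (0.27) were the others. Levels that overlapped but were higher in set 1 included those of Mx2 (0.66), Ifit3 (0.53), Ddx60 (0.53), Oas2 (0.46), Irf7 (0.45) and Stat2 (0.39). Gbp5 (-0.47), Ifi27 (-0.40), Socs1 (-0.36) and, outside the list, Cxcl9 (-0.81) were lower in set 1. In all, 28 of 42 members were higher in set 1, where 67.8% of all genes were, and 7 of 42 differed by more than 1.5-fold, where 29.7% of all genes did. The score was 0.12 ± 0.14 in set 1 and -0.11 ± 0.13 in set 2. Without P 4 the same 7 genes did not overlap, against 6.1% of the panel.

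**Figure D4:**
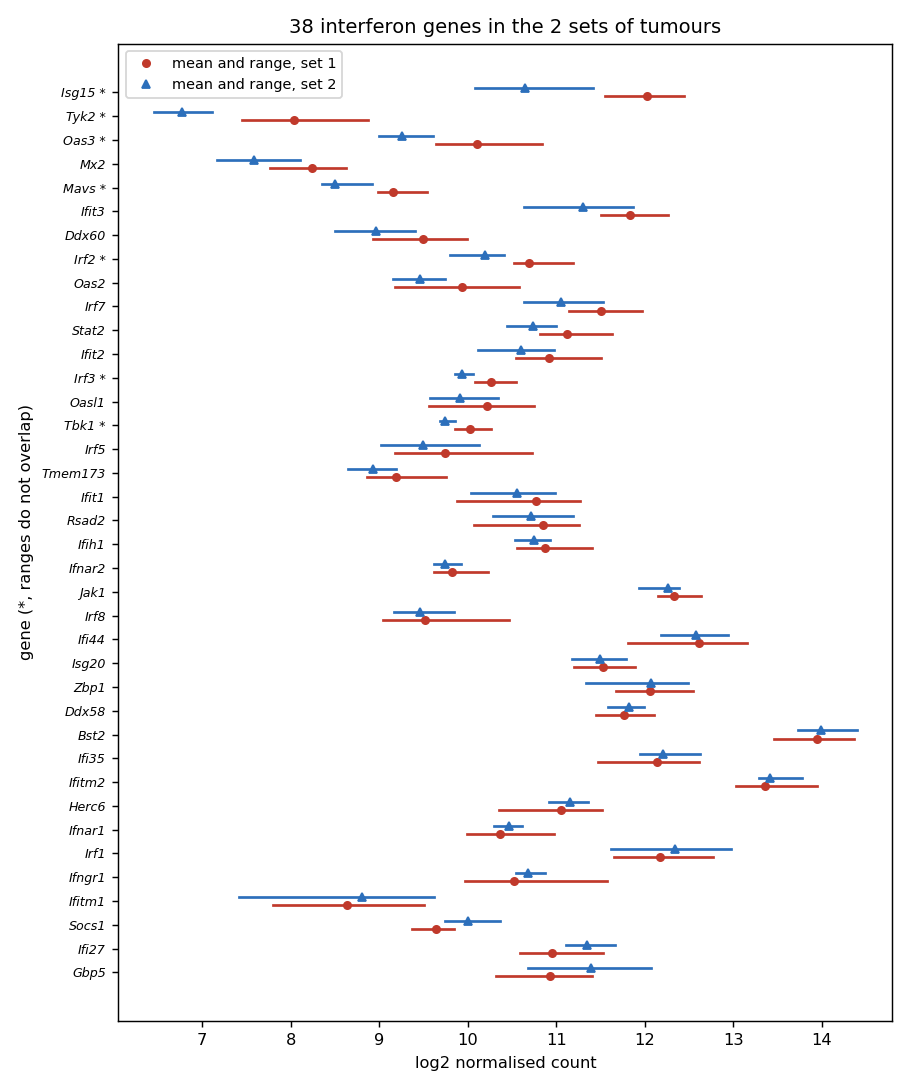
Mean (symbol) and range (line) of the log2 normalised count of the 38 genes above background in all tumours, in set 1 (11 tumours) and set 2 (12 tumours), ordered by the difference between the sets. An asterisk marks the 7 genes whose ranges did not overlap, from Isg15 (1.38 log2 units) to Tbk1 (0.27).

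Because the tumours fell into 2 sets, the genes that varied together were sought within each set. Correlations with Irf7 and, added after the values had been seen, with Irf1 were computed for the other 769 genes in each set, 3076 in all, over tumours of all 4 groups, with p-values from 100000 permutations (two-sided) adjusted over all of them. The gene most like Irf7 was Ifit2, with r = 0.94 in set 1 (rho = 0.76, permutation p = 9e-05 and 0.00875, adjusted p = 0.0277 and 0.27) and r = 0.91 in set 2 (rho = 0.84, permutation p = 4e-05 and 0.0011, adjusted p = 0.0176 and 0.129). It was the only gene of the 769 (0.13%) whose r passed in both sets, and without the 2 tumours farthest from the median of Irf7 r was 0.82 and 0.85. Without P 4 its r in set 1 was 0.94. Isg15 followed, with r = 0.84 in set 1 and 0.83 in set 2 (rho = 0.75 and 0.87, permutation p of r = 0.001 and 0.00029, of rho = 0.0106 and 0.00054, adjusted p of r = 0.0923 and 0.0543, of rho = 0.286 and 0.129), and r = 0.68 and 0.71 without the farthest pair of tumours. Ifit3 reached r = 0.96 in set 2 (rho = 0.85, permutation p = 1e-05, the smallest that 100000 permutations can give, and 0.00109, adjusted p = 0.00615 and 0.129, and r = 0.89 without the farthest pair) but 0.57 in set 1 (rho = 0.62, permutation p = 0.0654 and 0.0473, adjusted p = 0.38 and 0.445). In set 1 the r of Ifit3 fell to 0.20 without the farthest pair of tumours, and without P 4 it was 0.77.

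The gene most like Irf1 was Gbp5, with r = 0.93 in set 1 (rho = 0.87, permutation p = 7e-05 and 0.00113, adjusted p = 0.0239 and 0.129) and 0.95 in set 2 (rho = 0.89, permutation p = 1e-05 and 0.00023, adjusted p = 0.00615 and 0.115), and r = 0.85 and 0.90 without the farthest pair of tumours (0.91 in set 1 without P 4). It was likewise the only gene of 769 (0.13%) whose r passed in both sets. Ranked by the lower r of the sets, the next were Cd274, the gene of the checkpoint ligand PD-L1 (r = 0.82 and 0.96), Fpr2, a formyl peptide receptor gene (0.80 and 0.82), Psmb10, an immunoproteasome subunit gene (0.78 and 0.85), the member Zbp1 (0.77 and 0.82), Ifng, the interferon gamma gene (0.76 and 0.84), and Cxcl9, a chemokine gene induced by it (0.76 and 0.93), none of which passed in set 1 (adjusted p = 0.111 to 0.166). Ifng spanned 4.17 to 6.05 and was at or below background in 5 of the 23 tumours, so its r rests partly on values near the floor. Irf7 and Gbp5 gave r = 0.45 in set 1 and -0.16 in set 2, and Irf1 and Ifit3 gave -0.13 and -0.23. Among the promoters of Irf7, Ifit2, Isg15, Ifit3, Irf1 and Gbp5, the windows of Ifit3, Isg15 and Gbp5 held an ISRE match and that of Irf1 a GAS match, while those of Ifit2 and Irf7 held neither in the forms searched for. The points of each correlation share the scaling factor of their tumour, and the median r with Irf7 was 0.33 in set 1 and 0.54 in set 2 over the other 41 members, against -0.08 and 0.26 over all 769 genes. With Irf1 the median r of the members was -0.0025 and -0.0056, against -0.14 and 0.15 over all genes.

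**Figure D5:**
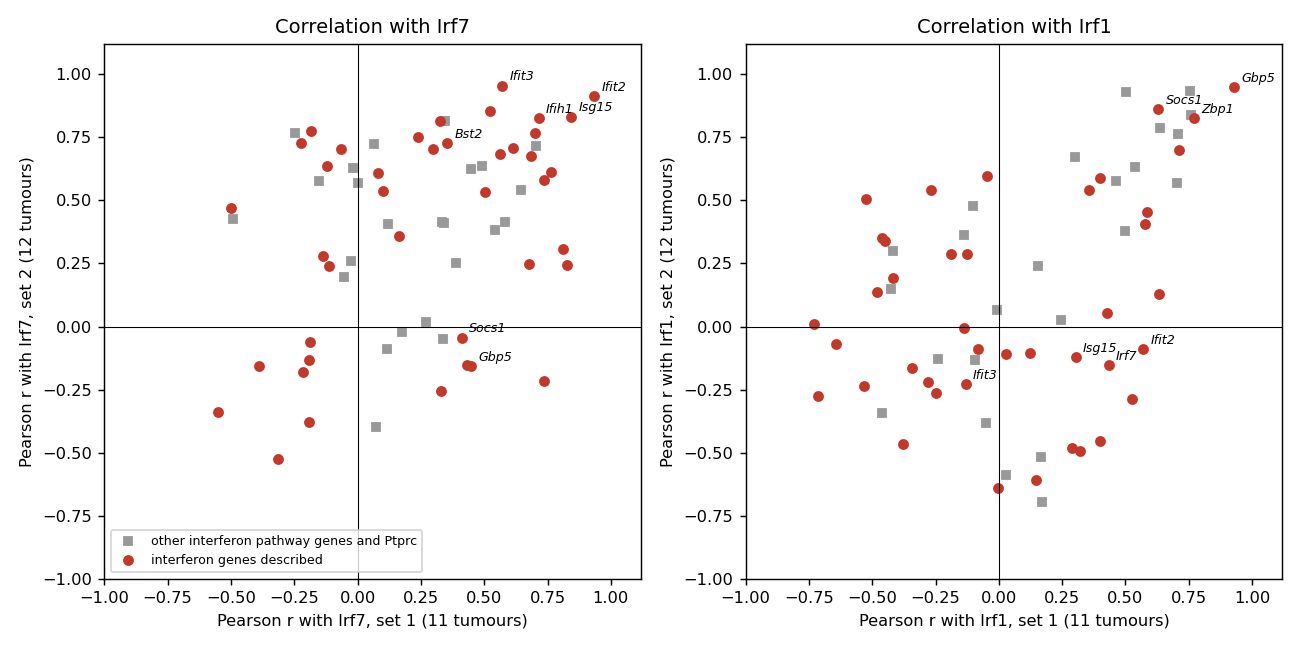
Pearson r of each gene with Irf7 (left) and Irf1 (right) in set 1 (11 tumours, horizontal axis) and set 2 (12 tumours, vertical axis), with circles for the members and squares for other interferon pathway genes and Ptprc. Ifit2 (0.94 and 0.91) and Isg15 (0.84 and 0.83) lie at the upper right with Irf7, and Gbp5 (0.93 and 0.95) with Irf1.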

How the data were processed

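RNA (150 ng) from 23 primary tumours was hybridised by the authors to the nCounter panCancer mouse immune panel and processed in nSolver 4.0 with Advanced Analysis 2.0. The authors deposited log2 values, in which the counts of a tumour were multiplied by its own factor (0.759 to 1.57) so that 20 reference genes average 11.4, and 6 values are exactly 0. Background treatment is not given in the sources used here. Dividing out the factor gave whole counts for 100% of the other values (tolerance 0.05). Differences were tested with limma 3.58.1 in R 4.3.3 (two-sided, Benjamini-Hochberg over 770 genes), A against DZ in its 11 tumours and the rest in all 23, with no filter or pseudocount. The fit was tested on simulated data of the same size, with independent noise and no split into sets. In these, 100 genes were changed by 1.5-fold, 50 by 2-fold and 50 by 4-fold, with 570 unchanged. The 2-fold differences were recovered for 56% of changed genes between A and P and 76% between DZ and P. With so many changed genes the adjusted threshold is easier to pass, so these rates do not hold for a few changed genes. Whether tumours within a group came from separate litters or days is not given, so p-values measure the spread between these tumours. Ptprc was compared by exact permutation tests, and correlations by 100000 permutations (scipy 1.17.1). A planned correlation over all tumours was replaced by one within sets.

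The named genes are the 3 members with the smallest p in each comparison, a fixed choice of members of each role, those at background, and Ifnb1, Ifng and Ptprc. A gene that the rule also named is not reported here. Others outside the list were named after their values were seen. The members and lists were chosen with earlier results of these data known. Alternatives were pseudocounts of 1 and 20, a minimum mean of 20 normalised counts, recentring, quantile normalisation, an intensity trend, voom, values raised to background, other tumours in the fit, the replicate number as a block and leaving out each tumour. The sets of tumours, as a block or separately, and leaving out P 4 from the description of the sets were added after seeing the data. Of the symbols, 41 matched RefSeq directly and 1 through a synonym, and 6 members had no promoter window here.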

Additional observations from a re-analysis of the deposited data

Results flagged for a closer look

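In 172 checks of a member (or the score) within a treatment group, a single tumour stood apart from the rest of its group 10 times, a rule by which chance alone marks about 1 in 20 groups. Of these, 7 were in P 4. There Irf4 was 7.74 against 4.82 in the next placebo tumour, Irf5 was 10.73 against 9.58, Irf8 was 10.47 against 9.71, Oas2 was 10.50 against 9.74 and Jak1 was 12.64 against 12.25. Ifi35 (11.47 against 12.08) and Herc6 (10.35 against 11.06) were lowest in the same tumour. P 4 also had the highest summed B cell, T cell, macrophage and fibroblast markers of all tumours, and the highest value of 38.1% of all genes. The part of these in its values was not tested. Jak1 in DZ 4 was 11.93 against 12.31 in the next DZ tumour. Ifi44l in P 3 was 4.35 against 3.70, below the background of that tumour. The score of A 1 was -0.27, against -0.040 in the nearest A tumour.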

How the results depend on the processing

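The count of members past the adjusted threshold was 0 in each of the 7 comparisons under every setting run (0 to 0 with each tumour left out in turn). Recentring on the panel median moved the score difference of A from P to 0.178, of ADZ from DZ to 0.165 and of A from DZ to 0.154, each by more than the SD within groups. Leaving out 1 tumour gave score differences of -0.075 to 0.017 for A from P, 0.0050 to 0.095 for DZ from P, -0.064 to 0.064 for ADZ from P, -0.111 to 0.017 for ADZ from DZ, -0.024 to 0.104 for ADZ from A, -0.134 to -0.030 for A from DZ and -0.072 to 0.057 for the interaction. The sign changed for A from P without P 4 or A 1, for ADZ from A without A 1 or ADZ 1, for ADZ from DZ without DZ 3, ADZ 3 or ADZ 4, for ADZ from P without P 1, P 2, ADZ 1 or ADZ 6, and for the interaction when any 1 of 8 tumours was left out. Of the named members, Ifi35 reversed between ADZ and P within set 2 (-0.036, against 0.23 in all tumours) and Ifitm1 between A and DZ within set 1 (0.24, against -0.61). In the other 878 combinations of result and setting the count or direction held, or the score moved by less than that SD. Whether the replicate numbers pair the tumours could not be decided. Correlations between tumours sharing a number exceeded 0.1 in 4 of 5 pairs for P and A and in 3 of 6 for DZ and ADZ. This count was 2 of 5 for A and ADZ, 1 of 5 for A and DZ, and 1 of 6 for P with either DZ or ADZ. Pairing could not be separated from the sets here. P and A tumours numbered 1 to 4 shared a set, and P and ADZ tumours of the same number never did. With the replicate number as a block 0 members passed, and Bst2 between DZ and P remained at 0.34. The groups of 5 or 6 tumours limit what can be seen. In the simulated data, with many genes changed at once, 1.5-fold differences between DZ and P were recovered for 39% of changed genes. Members near background are limited by signal.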
